A study of Mus musculus with 8 samples.

Results

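Granins and the enzymes that process neuropeptides were examined in mouse visual cortex after the loss of 1 eye. The 9 genes were chosen by name: the granins Scg2, Chga and Chgb, the convertase chaperone Scg5, the processing enzymes Pcsk1, Pcsk2, Cpe and Pam, and the peptide precursor Adcyap1. All probe sets of the array that the platform annotation pairs with a single one of these symbols were taken. That gave 8 of the 8251 genes so named on the array and 11 of its 12422 probe sets, and Pcsk2 had none of that name, so it was not analysed here. Of the 11, 9 probe sets of 7 genes passed a filter on dim values, which kept 7453 probe sets in all.

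The samples were visual cortex of wild-type C57Bl6 mice at postnatal day 24, 4 days after 1 eye was removed at postnatal day 20. The deprived group is the hemisphere contralateral to the removed eye, whose input comes mostly from that eye, and the non-deprived group is the ipsilateral hemisphere of operated mice. Each group had 4 arrays, numbered 1 to 4 in the sample titles. Both groups had lost an eye, and cortex of unoperated mice was not among the samples. The extraction protocol names 4 mice, but the design text speaks of pooled samples, so an array may stand for 1 animal or for a pool, and p-values measure only how these samples vary, possibly for technical reasons alone.

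Granins are acidic proteins that aggregate in the Golgi network and help to form dense-core vesicles, the organelles from which neurons release peptides. Inside these vesicles Pcsk1 and Pcsk2 cut precursors at pairs of basic residues, Cpe removes the basic residues left at the new ends, and Pam amidates the final peptide. In cortex such vesicles carry neuropeptides and neurotrophins, and several of their genes are known targets of cAMP and calcium signalling.

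Promoters of the granin genes are shown because that known regulation runs through the cAMP response element, the letters TGACGTCA, which read the same on both strands. RefSeq promoter windows of GRCm38.p6, reaching from 250 bases before to 50 bases after an annotated start of transcription, were given for 8 of the 9 genes, all but Cpe. The full element was found in 3 of these 8 genes, Scg2, Chgb and Pcsk1, against 2.03% of all 27025 genes with a window. The half-site TGACG, searched on both strands and contained in the full element, was found in 7 of the 8, Pam being the exception, against 23.0% of all genes. For 5 of the genes the stretch around the full element, or around the half-site where there is no full element, is printed below from the gene's own strand, with those letters in capitals and its distance from the start in the sentence that follows.
Scg2: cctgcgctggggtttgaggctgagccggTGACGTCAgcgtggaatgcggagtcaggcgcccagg
Chgb: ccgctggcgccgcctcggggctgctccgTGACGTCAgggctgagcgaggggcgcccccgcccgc
Pcsk1: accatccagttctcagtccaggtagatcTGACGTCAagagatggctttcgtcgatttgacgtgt
Chga: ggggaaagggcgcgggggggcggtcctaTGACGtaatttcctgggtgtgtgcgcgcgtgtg
Adcyap1: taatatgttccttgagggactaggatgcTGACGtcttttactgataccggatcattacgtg
These stretches lie at chr1:79440059-79440122 on the minus strand for Scg2, and on the plus strand at chr2:132781542-132781605 for Chgb, chr13:75089751-75089814 for Pcsk1, chr12:102554869-102554929 for Chga and chr17:93198898-93198958 for Adcyap1. The capitals begin 68 bases before the start in Scg2, 72 in Chgb, 78 in Pcsk1, 44 in Chga and 91 in the upstream of 2 Adcyap1 windows. The Pcsk1 stretch holds a second half-site, 50 bases before the start, which is left in lower case. The AP-1 letters TGANTCA, also the same on both strands, were in the windows of 0 of the 8 genes and of 8.97% of all genes. A match of letters is a description and not a measured binding site.

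**Figure D1:**
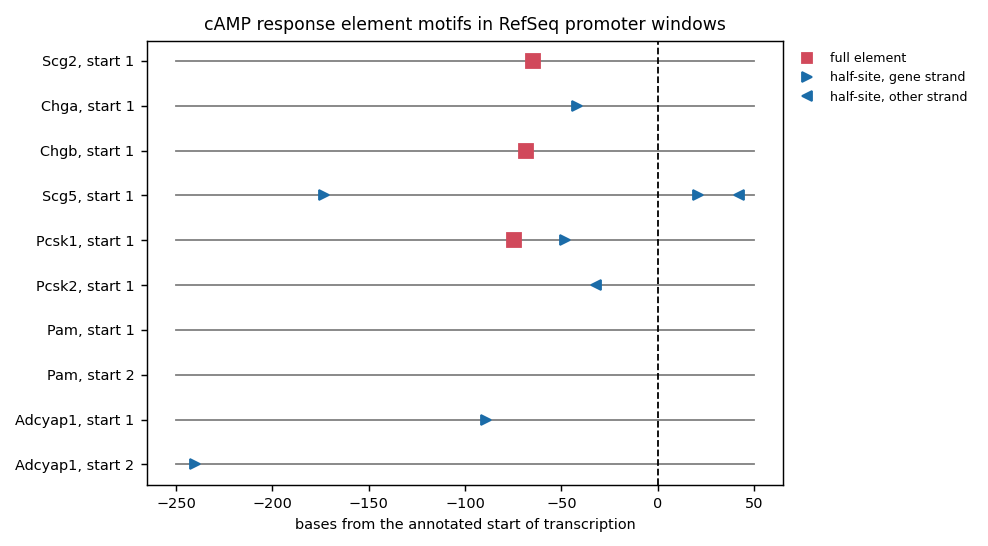
Positions of the full cAMP response element (squares) and of further half-sites (triangles, pointing along their strand) in the RefSeq promoter windows of 8 genes, in bases from the annotated start of transcription, with 2 annotated starts for Pam and for Adcyap1. The full element lies 68 to 78 bases before the start in Scg2, Chgb and Pcsk1, and the Pam windows hold no site.

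No granin, processing enzyme or Adcyap1 probe set passed the test between hemispheres. Signals were MAS5 values on a linear scale, and groups were compared with limma on log2(signal + 15.3), deprived minus non-deprived, with Benjamini-Hochberg adjustment over all 7453 probe sets and a threshold of 0.05. Adjusted p was 0.996 for each of the 9 members tested, and 0 of them were called. Over all probe sets 0 were called too (0%), the smallest adjusted p being 0.996. At an unadjusted p under 0.05 there were 0 of the 9 members, beside 1.22% of all probe sets lower and 1.45% higher (2.67% together). Those were 91 lower and 108 higher, a split that became 120 and 76 with quantile scaling and 119 and 72 with cyclic loess scaling. Groups did not overlap in 0 of the 11 member probe sets, beside 0.805% of all tested probe sets entirely lower and 1.25% entirely higher in deprived cortex. Of the 9 members, 6 had a difference below 0 and 3 above, with a median of -0.026, and 45.1% of all probe sets tested lay below 0, with a median of 0.024. In tissue RNA, fewer cells of a type and less RNA per cell cannot be told apart.

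Over all probe sets tested, the same-numbered arrays of the groups deviated together, so a fit with the replicate number as a block is given beside the results it bears on. This did not hold for each member. The correlation between same-numbered arrays was 0.94 for Scg2, but -0.71 for Adcyap1, -0.16 for Chgb (92841_f_at) and -0.15 for Pcsk1. With that block 1 of the 9 members, Scg2, had an unadjusted p under 0.05, beside 3.65% of all probe sets lower and 3.38% higher (7.03% together), and again 0% of all were called by adjusted p. Read against that share, 1 in 9 is close to the background.

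Scg2, secretogranin II, the precursor of the peptide secretoneurin, had the most uniform difference of the set. In non-deprived cortex its signal was 1584, 1954, 1525 and 1739 in replicates 1 to 4, and in deprived cortex 1363, 1569, 1260 and 1361. Deprived replicates 1, 3 and 4 lay below every non-deprived array, while deprived replicate 2 lay just above non-deprived replicate 3, so the groups overlapped. The group signals were 1701 ± 192 and 1388 ± 130 (SD, n = 4 each), a log2 difference of -0.29 ± 0.13 (SE), or a fold of 0.819 with a 95% interval of 0.669 to 1.003. In limma its unadjusted p was 0.0527 and its adjusted p 0.996, which ranked 210 of 7453.

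Within same-numbered arrays Scg2 was lower in the deprived hemisphere in 4 of 4 pairs, by log2 differences of -0.21, -0.31, -0.27 and -0.35. These differences had an SD of 0.058, against an SD of 0.145 between arrays of a group. With the replicate block the 95% interval of the fold was 0.705 to 0.952, the unadjusted limma p 0.0147 and the adjusted p 0.703. Leaving out arrays numbered 1, 2, 3 or 4 from the blocked fit gave an unadjusted limma p of 0.0307, 0.0504, 0.0187 or 0.0683. Without the block, leaving out each array in turn gave a log2 difference between -0.35 and -0.22, with an unadjusted limma p of 0.0339 to 0.143. RNA integrity was read from the ratio of 3' to 5' control signals of Gapdh, which averaged 0.898 ± 0.0543 without deprivation and 0.842 ± 0.0345 with it (SD of 4 arrays, exact two-sided permutation p = 0.143). The permutation does not use the replicate numbers, and the deprived array had the lower Gapdh ratio in 4 of 4 pairs. The ratio thus went partly with the group. With the Gapdh ratio as a covariate the Scg2 difference was -0.21 ± 0.17 (SE), with an unadjusted limma p of 0.234. The actin ratio was 1.39 ± 0.179 and 1.64 ± 0.239 (exact permutation p = 0.171), and with it as a covariate the difference was -0.33, with an unadjusted limma p of 0.0572.

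**Figure D2:**
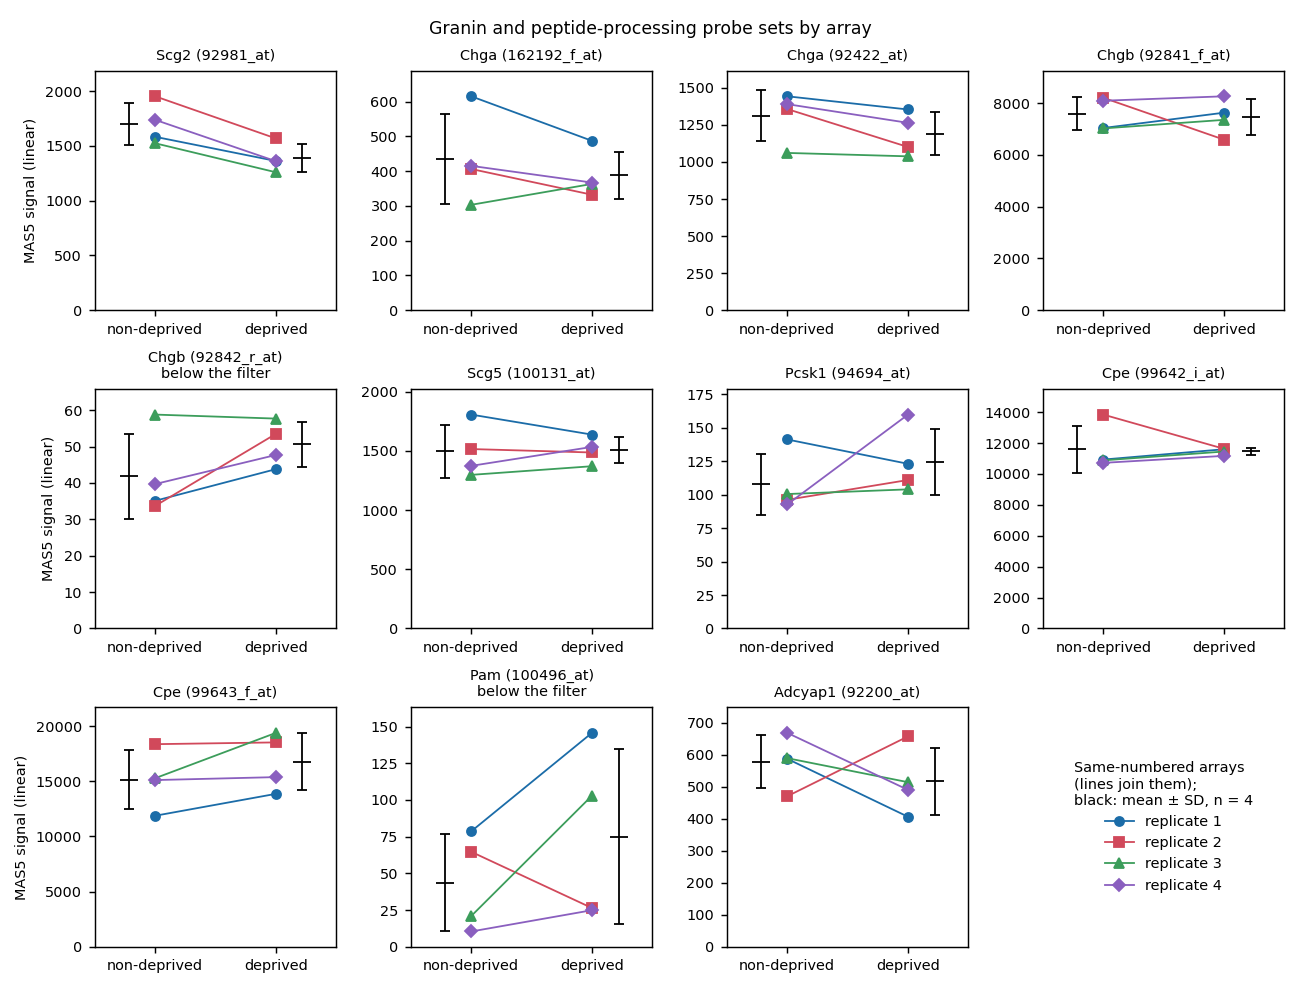
MAS5 signal (linear axis from 0) of each of the 11 probe sets in non-deprived and deprived cortex, with lines joining same-numbered arrays and black bars giving mean ± SD (n = 4). All 4 Scg2 lines run downwards, those of the Cpe probe set 99643_f_at all run upwards, and those of Adcyap1, Pcsk1 and Chgb run both ways.

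Chga, chromogranin A, a vesicle granin that is also cleaved into several peptides, was measured by 2 probe sets. The brighter one, 92422_at, had signals of 1443, 1357, 1061 and 1390 in non-deprived and 1354, 1101, 1038 and 1264 in deprived cortex. The deprived values lay within or just below the non-deprived range, and each was below its same-numbered partner. Its log2 difference was -0.14 ± 0.15 (SE), a fold of 0.908 with a 95% interval of 0.726 to 1.14. The dimmer one, 162192_f_at, whose suffix marks probes that may also match related sequences, had 615, 406, 303 and 415 against 487, 332, 363 and 367. Its difference of -0.13 ± 0.21 rested on non-deprived replicate 1, the highest of its 8 arrays, and was 0.045 without it. That of 92422_at was -0.023 with the Gapdh ratio as a covariate, -0.077 without deprived replicate 3 and -0.24 without non-deprived replicate 3. The counts of members lower in 4 of 4 pairs were 2, Scg2 and 92422_at of Chga, and higher in 4 of 4 was 1, a probe set of Cpe, beside 6.95% and 8.92% of all probe sets tested.

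Chgb, chromogranin B, the other classical granin of neuroendocrine vesicles, had a difference near 0. Its probe set 92841_f_at, whose probes may match related sequences, had signals of 7037, 8205, 7022 and 8091 in non-deprived cortex. In deprived cortex they were 7629, 6587, 7352 and 8262. The lowest and the highest array were both deprived ones. The log2 difference was -0.026 ± 0.12 (SE), a fold of 0.982 with a 95% interval of 0.815 to 1.18, and its sign changed under several alternative settings. A second Chgb probe set, 92842_r_at, had signals between 33.7 and 58.8, below the filter at about 110, with 0.22 ± 0.26 in a fit without the filter.

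Scg5, also known as 7B2, is a chaperone and inhibitor of the convertase Pcsk2. It had signals of 1806, 1515, 1297 and 1373 in non-deprived and 1637, 1486, 1370 and 1533 in deprived cortex. All deprived values lay inside the non-deprived range. The log2 difference was 0.017 ± 0.14 (SE), a fold of 1.01 with a 95% interval of 0.819 to 1.25, and 2 of 4 pairs were lower. The smallest value of non-deprived cortex and the smallest of deprived cortex were both those of replicate 3, and the largest both those of replicate 1.

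Pcsk1, the convertase PC1/3, was close to the limit of the filter. Its signals were 141, 96.2, 101 and 92.7 in non-deprived and 123, 111, 104 and 160 in deprived cortex. Deprived replicate 4 was the highest of all arrays and non-deprived replicate 4 the lowest. The log2 difference was 0.19 ± 0.24 (SE), a fold of 1.14 with a 95% interval of 0.792 to 1.63. Leaving out deprived replicate 4 gave 0.072, leaving out non-deprived replicate 1 gave 0.31, and it was 0.091 and 0.076 with quantile and cyclic loess scaling.

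Cpe, carboxypeptidase E, which also acts as a sorting receptor for vesicle cargo, was bright on both its probe sets. The probe set 99642_i_at had 10928, 13839, 10878 and 10716 in non-deprived and 11596, 11625, 11449 and 11168 in deprived cortex. Apart from non-deprived replicate 2, each non-deprived value lay below all the deprived ones. The log2 difference was -0.0081 ± 0.12 (SE), a fold of 0.994 with a 95% interval of 0.827 to 1.20, and it was 0.080 without that array. The probe set 99643_f_at, whose probes may match related sequences, had 11871, 18357, 15273 and 15104 against 13856, 18518, 19381 and 15372. Each of its deprived values was above its partner, by log2 differences of 0.013 to 0.34, but the spread between numbers was wider than that. Its difference was 0.15 ± 0.16, and leaving out an array moved it to 0.040 (non-deprived replicate 1), 0.077 (deprived replicate 3), 0.099 (deprived replicate 2), 0.24 (deprived replicate 1) or 0.25 (non-deprived replicate 2). With the block the 95% interval of its fold was 0.950 to 1.30.

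Pam, the amidating monooxygenase, gave no usable level. Its only probe set had signals of 78.6, 64.7, 20.9 and 10.4 in non-deprived and 146, 26.4, 103 and 24.9 in deprived cortex, with a mean below the filter. Arrays of a group differed by several fold. The log2 difference in the fit without the filter was 0.55 ± 0.53 (SE), a 95% interval of the fold of 0.653 to 3.27. That fit, also used for the second Chgb probe set, leaned upwards over all probe sets. At an unadjusted limma p under 0.05 it had 139 lower and 353 higher.

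Adcyap1 encodes PACAP, a peptide of dense-core vesicles that signals through cAMP. Its signals were 587, 470, 589 and 668 in non-deprived and 406, 657, 514 and 490 in deprived cortex. In pairs 1, 3 and 4 the deprived value was the lower, by log2 differences of -0.52, -0.19 and -0.44, and in pair 2 it was the higher, by 0.47. The overall difference was -0.17 ± 0.18 (SE), a fold of 0.890 with a 95% interval of 0.682 to 1.16. The size of this difference varied with the arrays used: leaving out replicate 2 gave -0.29 (deprived) or -0.26 (non-deprived), leaving out deprived replicate 1 gave -0.062, leaving out non-deprived replicate 4 gave -0.097, and the Gapdh ratio as a covariate gave -0.39. Its 95% interval of -0.55 to 0.22 was the same to 2 decimals with the block. In the blocked fit it was -0.38 without pair 2, with an unadjusted limma p of 0.0357 and an adjusted p of 0.912, and -0.052 without pair 1.

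**Figure D3:**
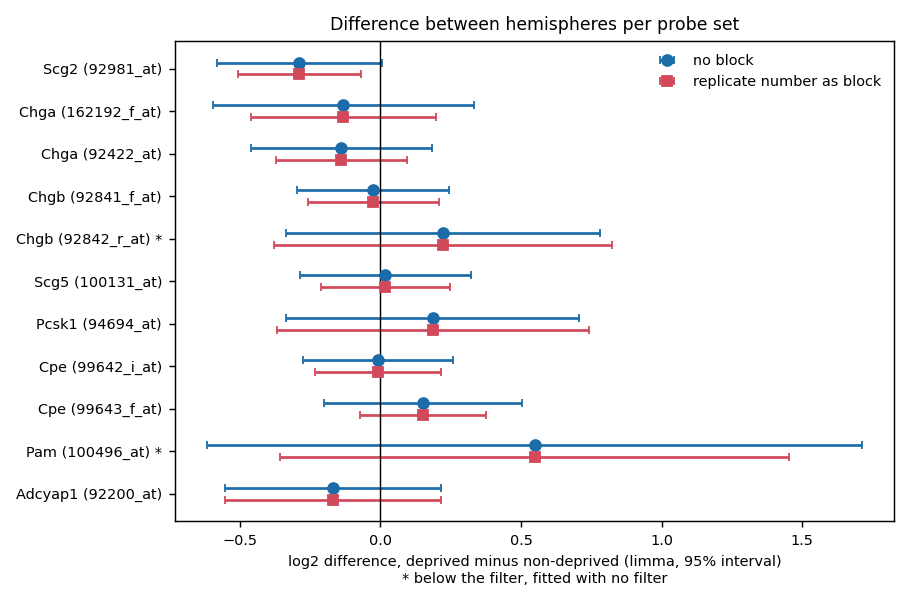
Log2 difference, deprived minus non-deprived, of the 11 member probe sets with 95% limma intervals, without (circles) and with (squares) the replicate number as a block. All intervals without the block include 0, and with the block the interval of Scg2 alone of the 11 lies below 0.

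The members did not vary as 1 block across arrays. Over the 8 arrays the 34 pairs of probe sets from different genes had a median Pearson r of 0.025, from -0.71 to 0.85, and 20 were above 0. These values describe arrays that share groups and replicate numbers. The highest was between Scg5 and the dimmer Chga probe set (0.85), and Scg5 with the brighter one had 0.68. Both arrays numbered 1 were the highest of their group for Chga, on both probe sets, and for Scg5, and the lowest of their group for the Cpe probe set 99643_f_at. Cpe on that probe set and the dimmer Chga one had the lowest value, -0.71. Scg2 had 0.47 with the brighter Chga probe set and -0.47 with Pcsk1. The 2 probe sets of Chga had 0.81 with each other and those of Cpe 0.51.

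**Figure D4:**
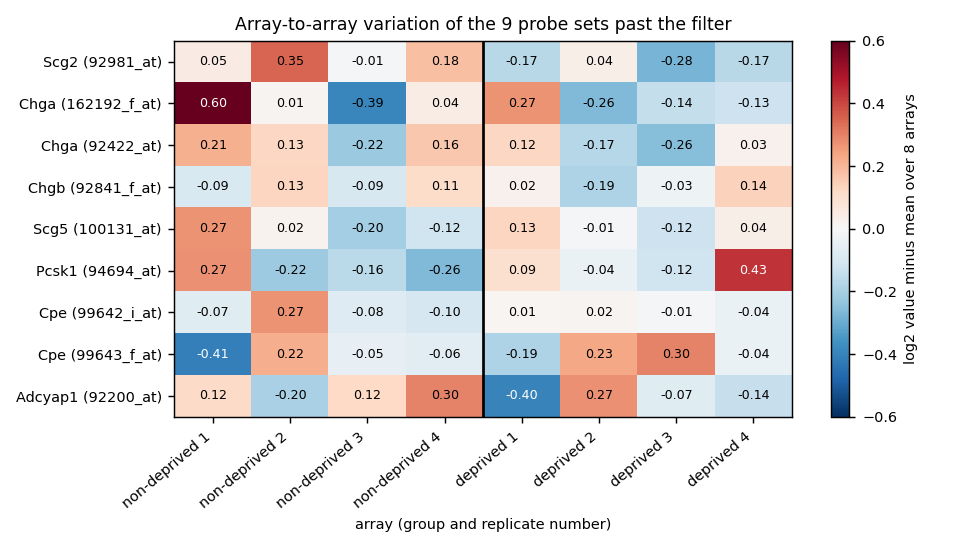
Log2 value of the 9 member probe sets past the filter, minus each one's mean over the 8 arrays, by group and replicate number, with red for values above and blue for values below that mean. Scg2 is positive in 3 of 4 non-deprived arrays (0.35 in replicate 2) and negative in 3 of 4 deprived ones. Within each group, Chga and Scg5 are highest in the array numbered 1.

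Profiles most like that of each member were ranked by Pearson r over the 8 arrays among about 6750 other named probe sets. For Scg2 the 3 highest were Rasd1 (0.964), a Ras-related GTPase, the adhesion molecule Vcam1 (0.922) and the zinc-finger factor Egr1 (0.922). Their log2 differences were -0.42, -0.30 and -0.71. Group means were not removed before the ranking, so a sign shared with Scg2 is partly built into the choice of these genes. For the brighter Chga probe set they were Mllt11 (0.955), Dap (0.955) and Abi1 (0.949), and for Chgb Ina (0.948), Ak1 (0.926) and Echs1 (0.915). Scg5 had Zfp617 (0.978), Wwc1 (0.966) and Slc30a4 (0.948), and Pcsk1 had Cryab (0.932), Actl6a (0.917) and Cdkn2aipnl (0.906). The brighter Cpe probe set had Mef2d (0.982), Hdac6 (0.979) and Itm2c (0.973), and Adcyap1 had Cacnb2 (0.952), Cttn (0.907) and Ifna5 (0.888). Each is the top of a long ranking over 8 values, so high r values are to be read only as an order.

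A list of other granins and vesicle cargo had 5 genes past the filter, among them the Golgi protein Nucb1. Of the 5 genes, 3 lay below and 2 above 0, with a median log2 difference of -0.10 and 0 passing the adjusted test. That median did not keep its sign: leaving out non-deprived replicates 1 or 2 gave 0.0028 or 0.012, leaving out deprived replicates 2, 3 or 4 gave 0.014, -0.00065 or -0.028, and adjusting for the actin ratio gave 0.034. For comparison, the median over the 5675 genes tested, each by its brightest probe set, was 0.020, and 2613 lay below 0. Pcsk1n encodes proSAAS, a precursor that inhibits Pcsk1. Its signals were 6882, 5217, 7522 and 9142 in non-deprived and 6868, 3894, 3934 and 8372 in deprived cortex. The deprived values were widely spread and each was below its partner, with a log2 difference of -0.37 ± 0.26 (SE). Its unadjusted limma p was 0.172, or 0.0297 with the block, where the adjusted p was 0.703. The calcium-binding Golgi protein Nucb1 had 0.18 and the serine protease inhibitor Serpini1 (neuroserpin) 0.16.

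Further convertases and trimming enzymes were divided evenly around 0. Of 15 genes past the filter, 8 were below and 7 above, the median was -0.0042 and 0 passed. Leaving out an array put that median between -0.049 and 0.058, on either side of 0. Those with the smallest p were Ece1, the endothelin-converting enzyme, at -0.26 ± 0.14 (SE), the endopeptidase Nrd1 at -0.21 ± 0.13 and the lysosomal protease Ctsh at -0.38 ± 0.26. Furin, the ubiquitous convertase of the Golgi network, had 0.25, and Pcsk4, Pcsk5, Pcsk6 and Pcsk7 had -0.033, 0.015, -0.074 and 0.10.

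Genes of vesicle formation and release behaved likewise, with 12 of 23 below 0, a median of -0.037 and 0 passing. Leaving out an array put the median between -0.065 and 0.0074, and it was 0.0085 with cyclic loess scaling and 0.028 with the Gapdh ratio as a covariate. The Golgi and endosome SNARE Stx6 had 0.36 ± 0.17 (SE), higher in 4 of 4 pairs, and the secretory Rab GTPase Rab3b had -0.73 ± 0.34, lower in 4 of 4. The block moved the unadjusted limma p of Stx6 from 0.0521 to 0.0356 and that of Rab3b from 0.0548 to 0.0129, with an adjusted p of 0.703 for both. Deprived replicate 3 of Rab3b, at 133, was far below the other arrays, which lay between 417 and 718. The vesicle SNARE Vamp2 had -0.23 ± 0.13. Ptprn, the vesicle membrane protein IA-2, and Cadps, which primes dense-core vesicles for release, had -0.074 and 0.031.

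Peptide precursors, the cargo that these enzymes cut, included 13 genes past the filter, with 10 below and 3 above 0 and a median of -0.16. Adjusting for the actin ratio gave a median of -0.0069, adjusting for that of Gapdh gave -0.26, and leaving out an array gave -0.24 to -0.13. None passed the adjusted test, and 2 had an unadjusted p under 0.05, Tac1 and Cort, both below 0, beside 1.22% of all probe sets lower and 2.67% in either direction. Tac1 had 207, 187, 166 and 294 in non-deprived and 146, 117, 85.6 and 201 in deprived cortex, a log2 difference of -0.61 ± 0.27 (SE). Cort, the cortistatin precursor, had -0.55 ± 0.25, and Penk, the enkephalin precursor, -0.43 ± 0.22. With the block 5 of the 13 had an unadjusted p under 0.05, all below 0, beside 3.65% of all probe sets lower and 7.03% in either direction, and 0 passed adjusted. This list was drawn up with the lower values of several of its genes already known.

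As a reference, 14 activity-regulated genes that earlier results of these data had shown lower were fitted in the same way. All 14 were below 0, from -0.89 for Fos to -0.19 for Homer1, with a median of -0.61. Of these, 13 had an unadjusted p under 0.05, beside 1.22% of all probe sets lower and 2.67% in either direction. None passed the adjusted limma test, with or without the replicate block. Junb had -0.68 and Nr4a1 -0.83. Homer1 had an SE of 0.36, an unadjusted limma p of 0.602 and only 2 of 4 pairs lower, and the other 13 genes lay at -0.48 or lower. The list was picked for lower values, so its differences only set the scale beside which the Scg2 difference of -0.29 and the Adcyap1 difference of -0.17 stand.

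**Figure D5:**
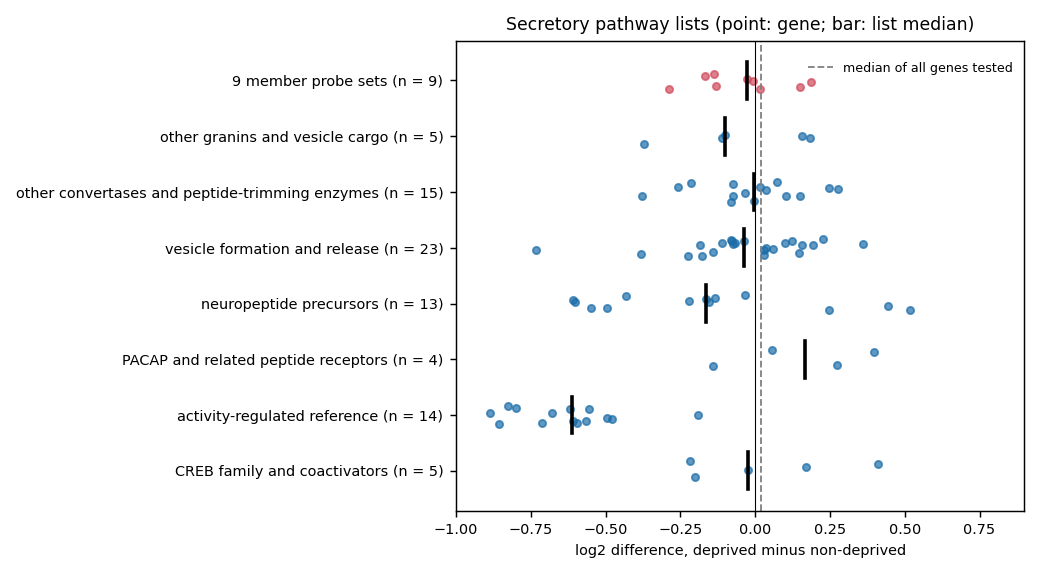
Log2 difference of each gene (points) in the secretory pathway lists and of the 9 member probe sets (red), with list medians (bars) and the median of all genes tested (dashed line, 0.020). Members lie between -0.29 and 0.19, and the activity-regulated reference genes, picked for their lower values, between -0.89 and -0.19. All of these but Homer1 lie at -0.48 or lower.

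Genes whose promoter window holds the full cAMP response element were also set beside all genes tested with a window, themselves included. Of 164 such genes tested, 51.2% were below 0, with a median log2 difference of -0.0059, and of all 4589 genes with a window 46.3% were, with a median of 0.019. For the half-site the values were 49.6% of 1694 genes and 0.0023. Among the members that hold the full element, Scg2 had -0.29, Chgb -0.026 and Pcsk1 0.19.

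Arrays of the series had median signals of 183 to 209 and pairwise log2 correlations of 0.926 to 0.973. Dim signals were higher in the deprived arrays, whose 10th percentile averaged 17.2 ± 2.68 against 13.5 ± 0.720 (SD of 4 arrays, exact two-sided permutation p = 0.0286, the smallest possible), and its part in the results was not tested. Of 10 glutamatergic neuron markers 6 were past the filter, with a summed signal of 6275 to 10144 in non-deprived and 6543 to 8514 in deprived arrays. For interneurons it was 12 of 13, with 18158 to 21604 and 16327 to 20663, and for astrocytes 8 of 10, with 20402 to 30255 and 21323 to 29141. For oligodendrocytes it was 6 of 10, with 17723 to 24421 and 20507 to 21334, for microglia 8 of 10, with 6772 to 7668 and 6378 to 7491, and for endothelium and mural cells 10 of 10, with 2789 to 3578 and 2386 to 3458. Thalamus markers, 6 of 8, summed to 2374 to 2767 and 2525 to 3142, with 1 of 6 below 0. Striatum (3 of 8), hippocampus (2 of 6) and blood (2 of 5) also had overlapping sums, and 0 of 6 choroid plexus markers were past the filter, Ttr, Kl, Folr1 and Aqp1 being dim. A sum follows its brightest markers and can hide single ones. Groups did not overlap for Lhx6 (interneuron, 0.28), Tnnt1 (thalamus, 0.42) and Wfs1 (hippocampus, -0.28). Over all probe sets tested, 0.805% were entirely lower and 1.25% entirely higher.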

How the data were processed

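For 12488 probe sets on 8 one-colour arrays, the deposited values are intensity on a linear scale, for which the submitters' processing notes name MAS5. Its version was not given in the sources used here. Precision is limited by the number of arrays.

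Each array was scaled to the same mean after trimming 2% at each end, and the 66 control probe sets were removed. The pseudocount of 15.3 is the 10th percentile of all signals. For dim genes, a log2 difference after adding it understates the change. Probe sets with a mean log2 value above the 40th percentile were kept (7453). Names came from the platform annotation (10833 probe sets with 1 symbol, 396 with several, 1193 with none), and 10817 symbols were brought up to date with the RefSeq gene table of GRCm38.p6, matched by Entrez ID. Suffixes such as _f_at, _i_at and _r_at mark probe sets with shared, fewer or less selective probes.

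The comparison used limma 3.58.1 (R 4.3.3) with lmFit and a two-sided eBayes with intensity trend, fitted on the 7453 probe sets kept. It was also run on simulated data, where every planted change was larger than the difference of any member past the filter. That run therefore does not tell whether changes as small as those of the members would be called. Intervals are 95% intervals of that fit. Array measures were compared by exact permutation over 70 assignments. Plots were made in Python 3.11.15 with matplotlib 3.10.9. Same-numbered arrays correlated in their deviations at 0.158 to 0.422 and others at -0.27 to 0.123, and all 4 pairs were over 0.1. The pairing rests on this, since the labels give only numbers. Named genes are all members, the 3 genes of each pathway list with the smallest p and the 3 most similar profiles of each member. Others (Furin, the other Pcsk genes, Ptprn, Cadps, Homer1, Crhr1, Lhx6, Tnnt1, Wfs1 and choroid plexus markers) were named after their values were seen. The members, lists and tests were chosen with earlier results of these data known.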

Additional observations from a re-analysis of the deposited data

Results flagged for a closer look

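In 1 of 30 groups of 4 arrays, a single array was set apart from the rest, and chance marks about 1 group in 20. For the Cpe probe set 99642_i_at, non-deprived replicate 2 was the highest, at a signal of 13839 against 10716 to 10928 in the others, and its gap on the log2 scale was 0.923 of the range of the group. The difference of this probe set was 0.080 without that array.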

How the results depend on the processing

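Of 215 refits of a member probe set, 194 kept the sign and the side of the threshold of the reported value, and 21 turned the sign of a difference that never passed. Fits with a block on all arrays, without the filter, with the stricter filter or without the intensity trend return the reported difference by construction. Those refits are counted among the 194 but could not turn a sign, so the count does not measure stability. The Chgb probe set 92841_f_at had 0.013 with cyclic loess scaling, 0.071 with the actin ratio, 0.11 with the Gapdh ratio, -0.077 to 0.032 with an array left out, and -0.073 to 0.071 with the replicate block and a pair left out. Scg5 had -0.066 with the actin ratio, -0.048 to 0.11 with an array left out, and -0.030, -0.0035, 0.031 and 0.069 with the block and a pair left out. Cpe (99642_i_at) had 0.0027 with quantile scaling, 0.035 with cyclic loess, 0.026 with array weights, 0.10 with the Gapdh ratio, -0.043 to 0.080 with an array left out, and -0.039 to 0.073 with the block and a pair left out. Chga (162192_f_at) had -0.28 to 0.045 with an array left out. Called probe sets were 0 in every fit except the replicate block without pair 4, which called 1, no member. Those at an unadjusted p under 0.05 numbered 524 with the replicate block, 535 with a random block and 370 with array weights. They numbered 492 with no filter (139 lower, 353 higher) and 97 with the filter at the 60th percentile (fewer tested). With an array left out they were 133 to 428 (312 without deprived replicate 1, 428 without deprived replicate 4), and 558, 379, 381 and 591 with the block and pair 1, 2, 3 or 4 left out, an alternative chosen after seeing the data. Apart from Scg2, the block changed no side of an unadjusted p of 0.05 among the members. The cause of these shifts was not tested. The medians of small gene lists were less stable, and those that turned are given beside their lists. Dim signals limit Pam, Pcsk1 and the second Chgb probe set.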

Other observations

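Genes listed as receptors for PACAP and related peptides were mostly dim or sparse on the array. Of 10 genes, 4 were past the filter, with 1 below and 3 above 0 and a median log2 difference of 0.17. Leaving out non-deprived replicate 4 gave a median of 0.021, leaving out deprived replicate 3 gave 0.085, leaving out non-deprived replicate 1 gave 0.11 and leaving out deprived replicate 1 gave 0.30, and with the filter at the 60th percentile it was 0.057. Adcyap1r1, the receptor selective for PACAP, averaged 255 ± 63.4 without and 225 ± 21.9 with deprivation (SD of 4 arrays), a log2 difference of -0.14 ± 0.20 (SE). The glucagon receptor gene Gcgr had 0.27 ± 0.21, and Vipr1, which binds VIP and PACAP, 0.40 ± 0.38. Crhr1, the receptor for corticotropin-releasing hormone and not for PACAP, had 0.057 ± 0.18 and counts among the 3 above 0. Its signal averaged 598 without and 629 with deprivation, and it alone passed the filter at the 60th percentile. None passed the adjusted limma test, and 0 of the 4 had an unadjusted p under 0.05.

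Of CREB family and coactivator genes, whose proteins act at cAMP response elements, 5 of 13 were past the filter, 3 below and 2 above 0, with a median of -0.025. That median changed sign without deprived replicate 1 (0.090) or non-deprived replicate 2 (0.023), with array weights (0.020) and with the filter at the 60th percentile (0.17), and without deprived replicate 3 it was -0.11. Crebbp, the CREB-binding acetyltransferase, had signals of 796, 1135, 978 and 840 in non-deprived and 929, 1581, 1463 and 1101 in deprived cortex. It was higher in 4 of 4 pairs, with a log2 difference of 0.41 ± 0.19 (SE), an unadjusted limma p of 0.0501 and an adjusted p of 0.996. With the replicate block these were 0.0039 and 0.634. Atf4, a stress-response factor, had -0.22 ± 0.14, and Atf2, which binds the same element, 0.17 ± 0.14.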
